A study of Mus musculus with 12 samples.

Results

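RNA from mouse embryonic fibroblasts was sequenced after knockdown of Myc in cells that had not received doxycycline, the drug that switches on their reprogramming factors. The 2 libraries labelled sic-Myc without doxycycline (siMyc) were set against the 2 labelled siControl without doxycycline, which makes 4 of the 12 libraries of the series. All genes were compared on log2(RPKM + 1), where RPKM is reads per kilobase of gene, scaled to the reads of the library. Every library came from 2o 1B MEFs, secondary fibroblasts of a single line that is reprogrammed by adding doxycycline (dox). Both groups here carried the same inducible system and neither had received the drug. siRNA was delivered with Lipofectamine RNAiMAX, and the protocol covers both siRNA pools and individual siRNAs without saying which was used for these libraries. Libraries were made from total RNA after depletion of ribosomal RNA. For reference, the same knockdown at 2 days of dox (2 siMyc libraries and 2 siControl libraries) and the knockdown of Gcn5, a histone acetyltransferase of the SAGA complex, without dox (2 siGcn5 libraries) were also used. No label ties the replicates to separate cultures, so the p-values measure the spread between libraries, which may be technical.

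Myc is a basic helix-loop-helix leucine zipper protein that binds DNA as a dimer with Max, preferably at the E-box sequence CACGTG. It is best known for raising the expression of genes for growth: ribosome production, translation, nucleotide synthesis and mitochondrial function. Max also pairs with the Mxd proteins and Mnt, which act as repressors at the same sites, and Myc can lower the expression of some genes through partners such as Zbtb17 (Miz-1). In fibroblasts Myc is induced by serum growth factors and is one of the factors that speed reprogramming.

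Myc itself was checked first. It had 4.57 and 4.80 RPKM in the siMyc libraries, against 21.7 and 17.6 RPKM in the siControl libraries, and the groups did not overlap (log2 change -1.85 ± 0.20, adjusted p = 0.000604, limma with Benjamini-Hochberg adjustment over 13175 genes; changes are siMyc minus siControl on log2(RPKM + 1) ± SE, n = 2 libraries each, a scale that understates the change of low genes). Of the 17 Myc network genes tested, 4 were lower and 1 higher. Mxd4, a repressor that competes for Max, had 24.1 and 24.1 RPKM with siMyc, against 36.4 and 38.8 RPKM with siControl (log2 change -0.62 ± 0.10, adjusted p = 0.00224). Ruvbl1 and Ruvbl2, paired ATPases that bind Myc and belong to chromatin remodelling complexes, were both lower: Ruvbl1 had 18.9 and 21.1 RPKM with siMyc, against 37.4 and 37.5 RPKM with siControl (log2 change -0.87 ± 0.13, adjusted p = 0.00166), and Ruvbl2 had 35.5 and 32.0 RPKM with siMyc, against 53.7 and 53.02 RPKM with siControl (log2 change -0.65 ± 0.11, adjusted p = 0.00327). Max had 25.1 and 25.7 RPKM with siMyc, against 26.7 and 28.0 RPKM with siControl and was not called (log2 change -0.10 ± 0.08, adjusted p = 0.382). Mycbp, a Myc-binding protein, was higher (log2 change 0.43 ± 0.10); the call for Mycbp was lost without siMyc replicate 1 (adjusted p = 0.130), siControl replicate 1 (adjusted p = 0.0835) or siControl replicate 2 (adjusted p = 0.0660).

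Counting reads assigned to genes, the 4 libraries held 156 M and 130.2 M with siMyc, against 135 M and 150.1 M with siControl, and 11596 to 11706 genes reached 1 RPKM in each. Fibroblast genes were high in all 4 libraries: Vim (vimentin) had 2206 and 2160.5 RPKM in the siMyc libraries, against 2692 and 2693 RPKM in the siControl libraries, and the cell surface marker Thy1 had 219 and 268 RPKM with siMyc, against 225 and 283 RPKM with siControl. Markers of other cell types were mostly low: 15 of 18 blood and macrophage genes, 9 of 14 adipocyte genes, 9 of 15 endothelial genes, 10 of 16 neural and glial genes and 13 of 16 skeletal muscle genes stayed below 1 RPKM in all 4 libraries. Summed over each list, blood and macrophage genes came to 7.40 and 8.40 RPKM with siMyc, against 7.46 and 8.22 RPKM with siControl. Adipocyte genes came to 31.9 and 32.5 RPKM with siMyc, against 34.4 and 31.5 RPKM with siControl, and skeletal muscle genes to 173 and 153 RPKM with siMyc, against 127 and 99.5 RPKM with siControl. Endothelial genes came to 34.1 and 33.5 RPKM with siMyc, against 29.3 and 28.3 RPKM with siControl, and neural and glial genes to 141 and 139 RPKM with siMyc, against 127 and 125 RPKM with siControl. The part of the higher muscle, endothelial and neural sums in other results was not tested. In RNA from bulk cultures, a different number of cells of one kind and a different amount of RNA per cell cannot be told apart, and RPKM gives shares of a library, not amounts per cell.

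Of 13175 genes tested (RPKM of at least 1 in at least 2 of the 12 libraries), 3098 or 23.5% passed an adjusted p of 0.05, 1686 of them higher (12.8%) and 1412 lower (10.7%) after Myc knockdown. Most of these changes were small: the median was 0.43 among the higher genes and -0.46 among the lower ones, 58 rose and 49 fell by at least 1 on the log2 scale, and the median over all genes tested was 0.02. The 2 groups did not overlap for 69.2% of all genes tested, called or not, so separation of the 4 values is by itself a weak mark of change. The count fell to 1068 when siMyc replicate 1 was omitted and to 2224 when siMyc replicate 2 was. It was 1264 when siControl replicate 1 was omitted and 1386 when siControl replicate 2 was. In all, 887 genes (461 higher and 426 lower) passed with all libraries and also with each of these 4 left out. A gene named below for its change against siControl without dox is one of these, unless the library that ended its call is given.

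Among the largest falls, Slc1a5, a glutamine transporter, had 5.62 and 6.63 RPKM in the siMyc libraries, against 17.5 and 18.2 RPKM in the siControl libraries (log2 change -1.41 ± 0.17, adjusted p = 0.00083). Mrps16, a protein of the small mitochondrial ribosomal subunit, had 16.3 and 17.8 RPKM with siMyc, against 43.3 and 42.9 RPKM with siControl (log2 change -1.29 ± 0.09, adjusted p = 0.00018). Col18a1, the basement membrane collagen that contains endostatin, had 6.00 and 7.40 RPKM with siMyc, against 19.2 and 20.8 RPKM with siControl (log2 change -1.45 ± 0.16, adjusted p = 0.000712). In each of these 3 genes both siMyc libraries lay far below both siControl libraries. Cav2 (caveolin-2) and Entpd6 (a nucleotide-hydrolysing enzyme) changed by -1.36 and -1.41. Larger falls than these were present, with 7 genes, Myc included, called lower by at least 1.5. The lowest change was -2.30 in the list of arginine, polyamine, creatine and methionine salvage genes. It was -1.73 among core spliceosome genes and -1.66 among small leucine-rich proteoglycans. Among the largest rises, Havcr2, an immunoglobulin-family receptor also known as Tim-3, had 13.2 and 11.0 RPKM in the siMyc libraries, against 3.25 and 3.47 RPKM in the siControl libraries (log2 change 1.58 ± 0.16, adjusted p = 0.000463). Cxcr7, an atypical chemokine receptor, had 18.2 and 13.6 RPKM with siMyc, against 6.02 and 5.77 RPKM with siControl (log2 change 1.28 ± 0.14, adjusted p = 0.000604). Ece1, the protease that makes active endothelin, had 173 and 148 RPKM with siMyc, against 69.5 and 73.8 RPKM with siControl (log2 change 1.15 ± 0.08, adjusted p = 0.00018). Sema3b (a secreted semaphorin) changed by 1.27 and Maff (a small Maf transcription factor) by 1.24. For all of these rises, neither siControl library reached the lower siMyc library. The largest rises and falls were taken only from genes whose groups do not overlap, so this separation is part of the choice.

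**Figure D1:**
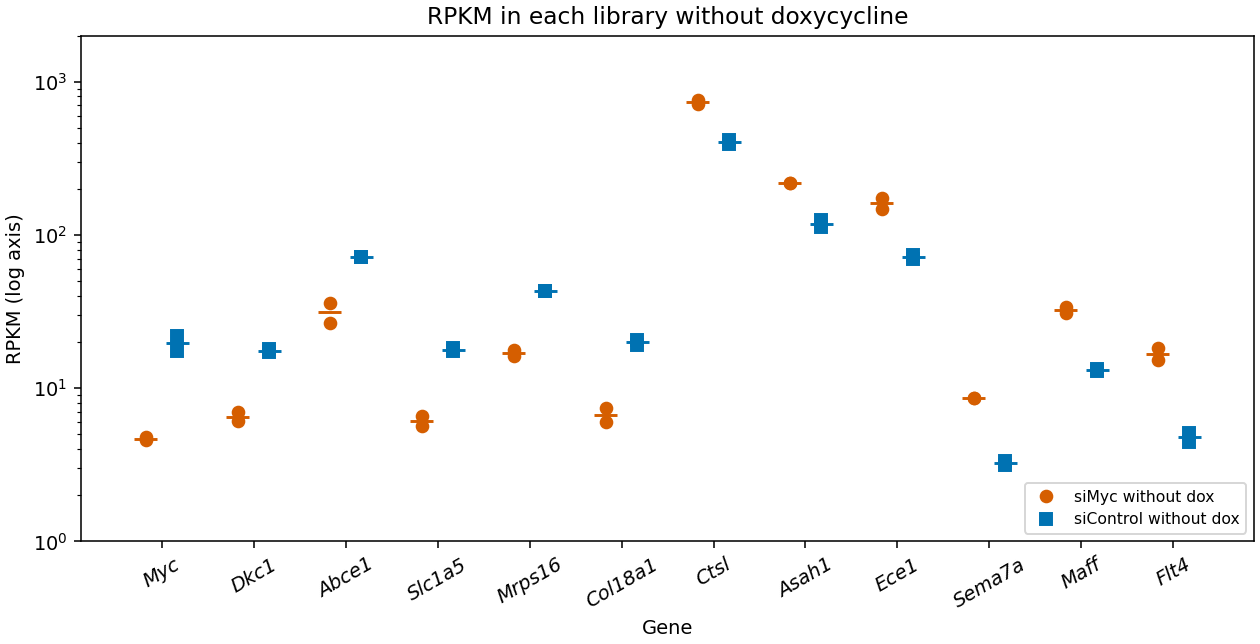
RPKM of 12 genes (log axis) in each of the 4 libraries without dox; circles are siMyc libraries, squares siControl libraries, and a short line marks the mean of each pair. Myc, Dkc1, Abce1, Slc1a5, Mrps16 and Col18a1 were lower in both siMyc libraries, and Ctsl, Asah1, Ece1, Sema7a, Maff and Flt4 were higher in both.

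Nearly all ribosomal protein genes and most ribosome biogenesis factors fell. Of 79 cytosolic ribosomal protein genes tested, 78 were lower and none higher, with a median change of -0.66. Of 94 ribosome biogenesis factors, 62 were lower and none higher (median -0.42), against 10.7% lower among all genes tested. Summed over the listed ribosomal protein genes, the level was 48214 and 52686 RPKM in the siMyc libraries, against 77445 and 81773 RPKM in the siControl libraries. Dkc1, the pseudouridine synthase of box H/ACA particles, had 6.09 and 6.94 RPKM in the siMyc libraries, against 18.0 and 17.1 RPKM in the siControl libraries (log2 change -1.30 ± 0.20, adjusted p = 0.00201). Nop56, a core protein of box C/D particles, which methylate ribosomal RNA, had 42.2 and 42.2 RPKM with siMyc, against 83.5 and 75.9 RPKM with siControl (log2 change -0.90 ± 0.13, adjusted p = 0.00169). Both genes were lower in each siMyc library than in either siControl library. Npm1 (nucleophosmin) changed by -0.86, but the call for Npm1 was lost without siMyc replicate 1 (adjusted p = 0.0759) or siControl replicate 2 (adjusted p = 0.0545). RNA polymerase I transcribes ribosomal RNA and polymerase III transcribes transfer RNA and 5S RNA. Of 14 polymerase I genes, 5 were lower and 1 higher, with Polr1a at -0.60 and Polr1e at -0.61. Of 27 polymerase III genes, 5 were lower. The largest fall among these was in Polr3e, with 8.74 and 8.76 RPKM with siMyc, against 13.4 and 12.9 RPKM with siControl (log2 change -0.54 ± 0.07, adjusted p = 0.00098). With siMyc replicate 1, siMyc replicate 2, siControl replicate 1 and siControl replicate 2 left out in turn, the test called 64, 76, 74 and 67 ribosomal protein genes lower. The counts for biogenesis factors were 22, 43, 24 and 35, and those for polymerase I genes were 2, 3, 2 and 2. The counts for polymerase III genes were 1, 3, 1 and 1. Many ribosomal protein genes have near-identical copies elsewhere in the genome that could split their reads, which leaves single values uncertain; under quantile normalization the median of these genes was -0.31.

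Small nucleolar RNAs guide the modification of ribosomal RNA, and in mammals most are cut from introns of other genes. Of 108 tested genes for box snoRNAs and Cajal body RNAs, 63 were lower and 1 higher (median -0.51, and -0.32 with quantile normalization), and the summed level of the list was 26998 and 29379 RPKM with siMyc, against 41911 and 44823 RPKM with siControl. Snord57, a box C/D RNA, had 56.3 and 62.4 RPKM in the siMyc libraries, against 125 and 113 RPKM in the siControl libraries (log2 change -0.99 ± 0.12, adjusted p = 0.000793), lower in both siMyc libraries. Read against the gene they lie in, these RNAs followed their hosts: of 61 whose host gene was called lower, 54 were lower (median change -0.64), whereas of 26 whose host was not called 1 was lower (median -0.09). Of 3 with a host called higher, 1 was higher. In all, 90 of the 108 lay within 66 other tested genes, 31 of them within ribosomal protein genes; of the 18 with no such host, 8 were lower. Among 14 genes listed as snoRNA hosts, 10 were lower (median -0.48). Gas5, a noncoding host that carries several box C/D RNAs, had 18.8 and 24.0 RPKM with siMyc, against 34.8 and 35.9 RPKM with siControl (log2 change -0.71 ± 0.10, adjusted p = 0.00178). Leaving out, in this order, siMyc replicate 1, siMyc replicate 2, siControl replicate 1 or siControl replicate 2, the test called 41, 58, 49 and 48 small RNA genes lower. The counts for host genes were 5, 10, 6 and 5. How reads that overlap a small RNA and its host were divided is not given in the sources used here, so the host and the small RNA are not separate measurements.

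Many genes of the translation apparatus outside the ribosome were lower too. Of 15 elongation and termination factors and associated proteins, 9 were lower (median -0.36, and -0.16 with quantile normalization). Of 22 cytosolic aminoacyl-tRNA synthetases, which load transfer RNAs, 13 were lower (median -0.29). Of 44 initiation factors, 16 were lower and 1 higher (median -0.17). Abce1, the ATPase that recycles ribosomes after termination, had 26.6 and 36.0 RPKM in the siMyc libraries, against 72.1 and 71.5 RPKM in the siControl libraries (log2 change -1.19 ± 0.17, adjusted p = 0.00154). Vars, the valine synthetase, had 27.4 and 27.7 RPKM with siMyc, against 46.6 and 42.1 RPKM with siControl (log2 change -0.67 ± 0.11, adjusted p = 0.00294), and Kars, the lysine synthetase, had 53.5 and 53.5 RPKM with siMyc, against 82.5 and 84.5 RPKM with siControl (log2 change -0.63 ± 0.10, adjusted p = 0.00243). Pabpc1, the cytosolic poly(A)-binding protein, had 301 and 325 RPKM with siMyc, against 469 and 472 RPKM with siControl (log2 change -0.59 ± 0.09, adjusted p = 0.00186). All 4 of these genes were lower in both siMyc libraries than in either siControl library. Eif5a, an elongation factor by function, changed by -0.72, but the call for Eif5a was lost without siMyc replicate 1 (adjusted p = 0.0833), siControl replicate 1 (adjusted p = 0.0763) or siControl replicate 2 (adjusted p = 0.0646). When siMyc replicate 1, siMyc replicate 2, siControl replicate 1 or siControl replicate 2 was left out, the test called 5, 9, 8 and 5 elongation factors lower. The counts for synthetases were 7, 8, 7 and 8, and those for initiation factors were 5, 12, 8 and 6.

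**Figure D2:**
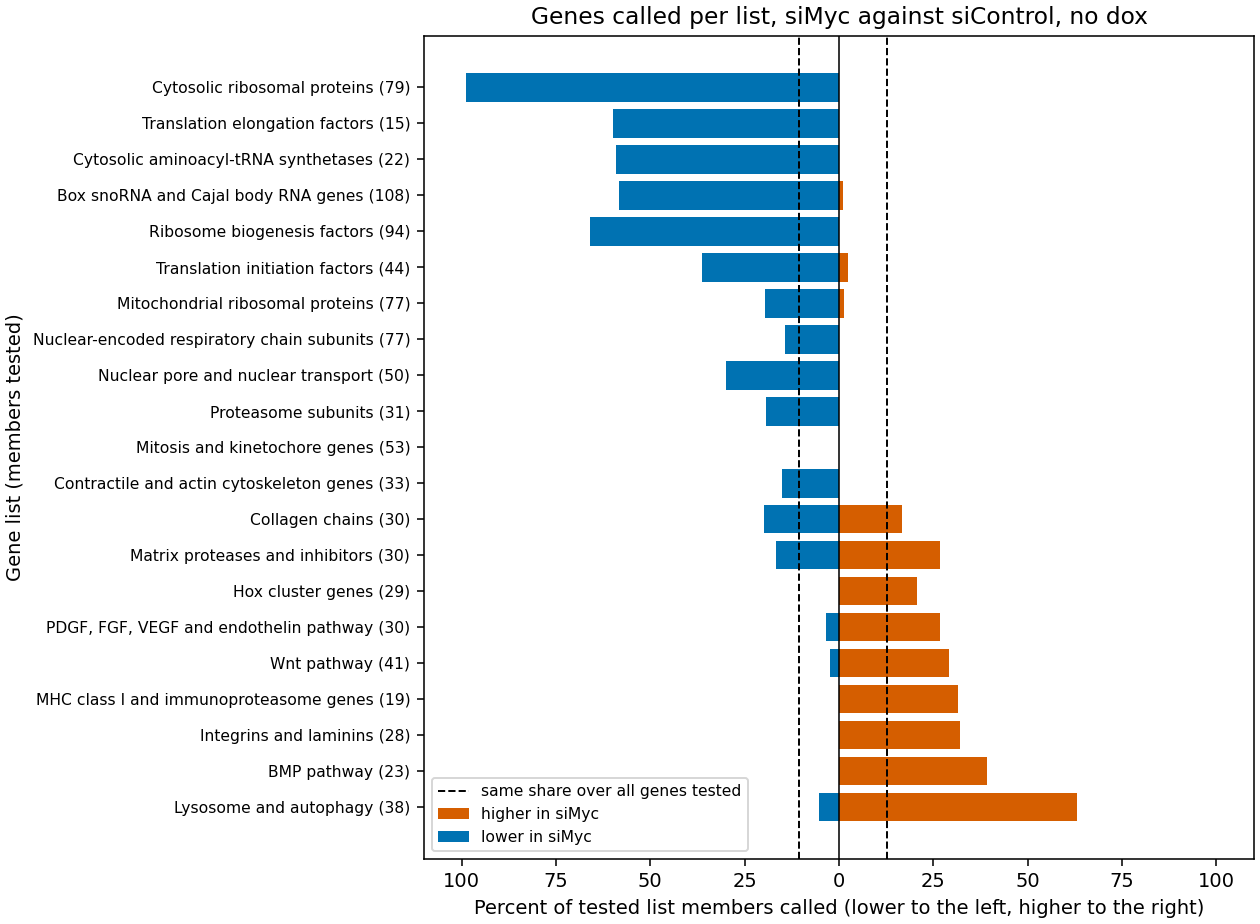
Percent of the tested members of 21 gene lists called lower (bars to the left) or higher (bars to the right) in siMyc than in siControl libraries without dox, with the number tested in brackets; dashed lines mark the same shares over all genes tested, 10.7% lower and 12.8% higher. Ribosomal and translation lists lie to the left, and lysosome, BMP, integrin and MHC lists to the right.

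Mitochondrial lists had small negative medians, and their calls were mostly lower. Of 77 mitochondrial ribosomal proteins, 15 were lower (19.5%, against 10.7% of all genes) and 1 higher (median -0.12). Of 77 nuclear-encoded respiratory chain subunits, 11 were lower (14.3%, median -0.07), close to the 10.7% of all genes. Of 38 import and biogenesis genes, 10 were lower (26.3%, median -0.14). Among the respiratory chain, Atp5g1, which encodes the ring subunit of ATP synthase, had 85.7 and 84.4 RPKM in the siMyc libraries, against 128 and 129 RPKM in the siControl libraries (log2 change -0.59 ± 0.09, adjusted p = 0.00168). Hspd1, the mitochondrial chaperonin, had 142 and 146 RPKM with siMyc, against 241 and 221 RPKM with siControl (log2 change -0.68 ± 0.13, adjusted p = 0.00499), and Timm9, a small chaperone of the intermembrane space, had 6.86 and 6.61 RPKM with siMyc, against 10.1 and 10.2 RPKM with siControl (log2 change -0.53 ± 0.07, adjusted p = 0.00107). These were each lower in both siMyc libraries. Of 24 cytosolic chaperone genes, 8 were lower (median -0.18, and -0.11 with quantile normalization), among them the chaperonin subunit Cct5 (-0.46). Of 31 proteasome subunits, 6 were lower (median -0.14), led by Psma1 at -0.30; the call for Psma1 was lost without siMyc replicate 1 (adjusted p = 0.141), siMyc replicate 2 (adjusted p = 0.0509), siControl replicate 1 (adjusted p = 0.0675) or siControl replicate 2 (adjusted p = 0.140). Nuclear transport genes were lower for 15 of 50 (median -0.21). Ran, the GTPase that sets the direction of transport, had 143 and 143 RPKM with siMyc, against 214 and 213 RPKM with siControl (log2 change -0.57 ± 0.09, adjusted p = 0.00276), and Xpot, the exporter of transfer RNA, changed by -0.55. In fits that omitted siMyc replicate 1, siMyc replicate 2, siControl replicate 1 or siControl replicate 2, the test called 4, 3, 4 and 4 mitochondrial ribosomal proteins lower. The counts for respiratory chain subunits were 4, 6, 5 and 4, and those for import genes were 4, 3, 3 and 4. The counts for chaperones were 2, 5, 3 and 3, and those for proteasome subunits were 0, 1, 0 and 0. The counts for transport genes were 4, 7, 4 and 5.

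Some RNA-processing genes were lower. Of 63 core spliceosome genes, 15 were lower (median -0.19), and of 68 hnRNP and SR genes, 13 were lower and 1 higher (median -0.18). Protein arginine methyltransferases modify splicing proteins and histones, and 5 of 11 of these genes and partners were lower, none higher (median -0.25). Prmt3, which methylates a small-subunit ribosomal protein, had 8.68 and 9.71 RPKM in the siMyc libraries, against 16.9 and 15.6 RPKM in the siControl libraries (log2 change -0.76 ± 0.10, adjusted p = 0.00114). Prmt1, the main enzyme of the family, had 128 and 127 RPKM with siMyc, against 195 and 202 RPKM with siControl (log2 change -0.63 ± 0.12, adjusted p = 0.00519). Both were lower in each siMyc library. Wdr77, the partner of Prmt5 in the methylosome, changed by -0.66, while Prmt5 itself changed by -0.49, but the call for Prmt5 was lost without siMyc replicate 1 (adjusted p = 0.0653) or siControl replicate 1 (adjusted p = 0.0719). With siMyc replicate 1, siMyc replicate 2, siControl replicate 1 and siControl replicate 2 left out in turn, the test called 4, 5, 2 and 3 spliceosome genes lower. The counts for hnRNP and SR genes were 6, 9, 3 and 6, and those for methyltransferase genes were 4, 4, 3 and 4.

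Many enzymes that supply nucleotides and one-carbon units fell. Of 19 purine synthesis genes, 9 were lower and 1 higher (median -0.41), and of 22 serine, glycine and folate enzymes, 11 were lower and 1 higher (median -0.31). Atic, which catalyses the last steps of purine synthesis, had 40.0 and 39.7 RPKM in the siMyc libraries, against 71.0 and 64.6 RPKM in the siControl libraries (log2 change -0.75 ± 0.09, adjusted p = 0.000826). Aprt, the adenine salvage enzyme, changed by -0.76, Mthfd1, a cytosolic folate enzyme, by -1.03, and Aldh1l2, a mitochondrial folate enzyme, by -1.24. Ahcy, which clears S-adenosylhomocysteine, had 26.6 and 27.9 RPKM with siMyc, against 59.5 and 53.6 RPKM with siControl (log2 change -1.02 ± 0.15, adjusted p = 0.00167). Of 17 pyrimidine and deoxynucleotide genes, 4 were lower and 1 higher; Dctd, which deaminates dCMP, changed by -0.89, and for Cad, the enzyme that starts pyrimidine synthesis (log2 change -0.76), the call was lost without siMyc replicate 1 (adjusted p = 0.0576) or siControl replicate 1 (adjusted p = 0.0783). Amino acid transporters were lower for 7 of 20 and higher for 2: beside Slc1a5, the cationic and neutral amino acid exchanger Slc7a6 changed by -0.87. Of 16 pentose phosphate and glutamine enzymes, 1 was higher (6.25%) and 4 lower (25.0%). Glul, which makes glutamine, had 19.7 and 16.7 RPKM with siMyc, against 11.6 and 10.9 RPKM with siControl (log2 change 0.65 ± 0.09, adjusted p = 0.00122), higher with siMyc, whereas the aminotransferase Gpt2 changed by -0.72. In glycolysis, 10 of 26 genes were lower and 1 higher (median -0.22, and -0.09 with quantile normalization), and Aldoa (aldolase A) had 322 and 346 RPKM with siMyc, against 564 and 563 RPKM with siControl (log2 change -0.75 ± 0.08, adjusted p = 0.000604). Leaving out, in this order, siMyc replicate 1, siMyc replicate 2, siControl replicate 1 or siControl replicate 2, the test called 7, 8, 5 and 9 purine genes lower. The counts for serine and folate genes were 6, 10, 4 and 7, and those for pyrimidine genes were 2, 3, 1 and 3. The counts for transporters were 4, 7, 6 and 5, and those for glycolysis genes were 2, 4, 3 and 3. The counts for pentose phosphate and glutamine enzymes were 2, 3, 3 and 2.

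Of 18 iron storage and transport genes, 2 were higher and 3 lower (11.1% and 16.7%, against 12.8% and 10.7% of all genes). Ftl1, the ferritin light chain, fell most by RPKM: it had 1025 and 1066 RPKM in the siMyc libraries, against 3095 and 2956 RPKM in the siControl libraries (log2 change -1.53 ± 0.09, adjusted p = 0.000172), although it has near-identical copies that could take reads. Hmox1, heme oxygenase 1, which releases iron from heme, had 57.2 and 54.8 RPKM with siMyc, against 103 and 94.2 RPKM with siControl (log2 change -0.81 ± 0.15, adjusted p = 0.00479), lower in both siMyc libraries. Fbxl5, the iron-sensing subunit of a ubiquitin ligase, changed by 0.47. Tfrc, the transferrin receptor and a textbook Myc target, changed by -1.09; the call for Tfrc was lost without siMyc replicate 1 (adjusted p = 0.160), siControl replicate 1 (adjusted p = 0.0858) or siControl replicate 2 (adjusted p = 0.0885). Mt1, the metal-binding protein metallothionein 1, had 227 and 273 RPKM with siMyc, against 95.3 and 152 RPKM with siControl (log2 change 1.04 ± 0.21, adjusted p = 0.00612). Of 28 sterol genes, 2 were higher and 1 lower (7.14% and 3.57%, below the 12.8% and 10.7% of all genes). The sterol sensor partner Insig2 changed by 0.54, higher with siMyc. When siMyc replicate 1, siMyc replicate 2, siControl replicate 1 or siControl replicate 2 was left out, the test called 1, 2, 1 and 2 iron genes higher. The counts for iron genes lower were 2, 3, 2 and 2.

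Lysosome genes rose as a group. Of 38 lysosome and autophagy genes tested, 24 were higher and 2 lower, with a median change of 0.43, against 12.8% higher among all genes tested. The list summed to 5909 and 5767 RPKM with siMyc, against 3980 and 4328 RPKM with siControl. Asah1, acid ceramidase, had 219.6 and 219.7 RPKM in the siMyc libraries, against 112 and 125 RPKM in the siControl libraries (log2 change 0.89 ± 0.10, adjusted p = 0.000712). Ctsl, the cysteine protease cathepsin L, had 760.1 and 714 RPKM with siMyc, against 392 and 413 RPKM with siControl (log2 change 0.87 ± 0.08, adjusted p = 0.000463). Hexa, the alpha chain of beta-hexosaminidase, had 196 and 182 RPKM with siMyc, against 104 and 108 RPKM with siControl (log2 change 0.83 ± 0.13, adjusted p = 0.00234). In these 3 genes the lower siMyc library exceeded the higher siControl library by a wide margin. Psap (prosaposin, the precursor of activators for lipid breakdown) changed by 0.70, Lamp1 (a major protein of the lysosomal membrane) by 0.57 and Ctsd (the aspartic protease cathepsin D) by 0.43. Ctsl, Psap, Ctsd and Lamp1 were also among the 10 genes with the largest rise in RPKM in the whole table. The RNA of Tfeb and Tfe3, transcription factors known to drive lysosome genes, did not pass the test. Tfeb had 1.94 and 1.61 RPKM with siMyc, against 2.03 and 2.04 RPKM with siControl (adjusted p = 0.493). Tfe3 had 15.2 and 15.3 RPKM with siMyc, against 16.98 and 18.3 RPKM with siControl (adjusted p = 0.0623). These values give RNA levels, not the activity of the proteins, and their part in the rise was not tested. The 2 genes called lower belong to autophagy: Sqstm1, the cargo receptor p62, changed by -0.33 and Becn1 (beclin 1) by -0.23; Tfeb, Tfe3, Sqstm1 and Becn1 were named after their values were seen. In fits that omitted siMyc replicate 1, siMyc replicate 2, siControl replicate 1 or siControl replicate 2, the test called 20, 21, 16 and 23 lysosome and autophagy genes higher. The counts for the 2 lower genes were 0, 2, 1 and 0.

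**Figure D3:**
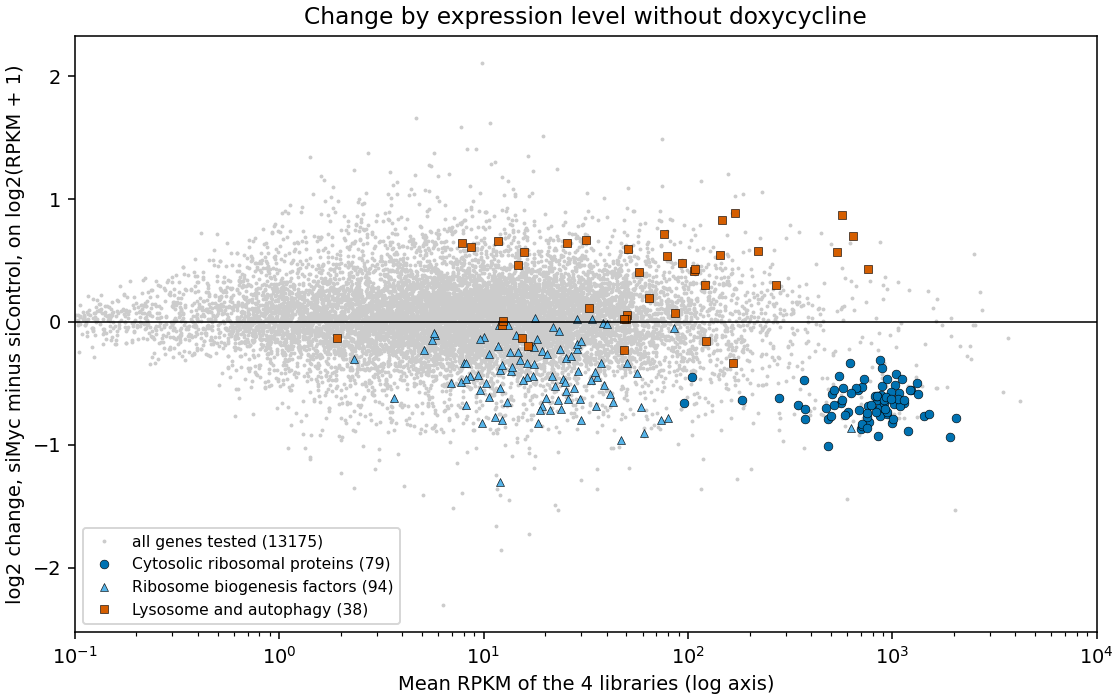
Log2 change, siMyc minus siControl without dox, against the mean RPKM of the 4 libraries (log axis); grey points are all 13175 genes tested, circles the 79 cytosolic ribosomal proteins, triangles the 94 ribosome biogenesis factors and squares the 38 lysosome and autophagy genes. Ribosomal protein genes lie below 0 at the highest levels, while most lysosome genes lie above 0 at all levels.

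Level and gene length went with the direction of change. Of 175 genes with a mean of 500 RPKM or more, 116 were lower and 12 higher (median change -0.53), whereas between 20 and 100 RPKM 369 of 2938 genes were lower and 507 higher (median 0.03). The 100 most abundant genes held 25.6% and 26.4% of all RPKM in the siMyc libraries, against 30.1% and 30.6% in the siControl libraries, and the RPKM of all genes summed to 456033 and 460163 with siMyc, against 502254 and 513034 with siControl. Genes called lower had a median length of 2136 bases and genes called higher 3089.5 bases, against 2731 bases for all genes tested. Of 5 equal bins by length, the shortest had 16.6% lower and 9.11% higher, and in the longest 6.30% were lower and 15.9% higher. Ribosomal protein genes are short and abundant, and the part of length or level in the other results was not tested.

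Windows of 250 bases before to 50 bases after the start of each gene were searched for CACGTG, the E-box that Myc and Max prefer, using RefSeq promoters on the mouse build GRCm38.p6 (the word is its own reverse complement, so both strands were covered; windows were matched by symbol for 10080 of the 13175 genes tested). At least 1 CACGTG lay in a window of 144 of 1070 genes called lower (13.5%) and 177 of 1276 called higher (13.9%), against 11.3% of genes not called and 8.09% of all promoters in the table. By list, the windows of a gene held the word for 11 of 27 lysosome and autophagy genes (40.7%), 10 of 29 textbook Myc-activated genes (34.5%), 18 of 82 ribosome biogenesis factors (21.95%) and 6 of 59 ribosomal protein genes (10.2%). The same 6 letters are therefore found near the start of genes that were lower and of genes that were higher. A match describes the sequence and does not show that a protein binds it. For a few called genes of both directions that hold CACGTG before the start, the 250 bases before it are shown on the gene's own strand, with CACGTG in capitals. Atic, Hspd1, Prmt3 and Timm9 were lower with siMyc, and Ctsl and Ctsd were higher; Ctsd holds the word at positions -245 and -98 relative to the start, and Atic holds it at -7.
Atic, chr1:71556906-71557155, plus strand: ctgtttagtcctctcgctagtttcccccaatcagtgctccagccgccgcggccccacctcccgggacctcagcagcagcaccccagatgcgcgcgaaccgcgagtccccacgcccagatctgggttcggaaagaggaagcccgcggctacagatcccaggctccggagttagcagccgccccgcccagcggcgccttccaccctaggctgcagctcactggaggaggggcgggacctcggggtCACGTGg
Hspd1, chr1:55088244-55088493, minus strand: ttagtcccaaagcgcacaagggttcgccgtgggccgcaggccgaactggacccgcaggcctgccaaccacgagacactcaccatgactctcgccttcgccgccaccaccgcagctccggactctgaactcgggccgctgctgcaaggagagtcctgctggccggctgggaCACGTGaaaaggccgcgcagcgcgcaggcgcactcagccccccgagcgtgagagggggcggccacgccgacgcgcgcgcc
Prmt3, chr7:49778108-49778357, plus strand: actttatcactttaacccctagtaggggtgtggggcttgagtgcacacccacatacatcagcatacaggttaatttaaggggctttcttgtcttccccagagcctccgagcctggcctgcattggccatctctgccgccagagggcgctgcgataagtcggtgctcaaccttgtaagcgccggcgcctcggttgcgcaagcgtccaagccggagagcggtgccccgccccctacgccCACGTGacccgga
Timm9, chr12:71136676-71136925, minus strand: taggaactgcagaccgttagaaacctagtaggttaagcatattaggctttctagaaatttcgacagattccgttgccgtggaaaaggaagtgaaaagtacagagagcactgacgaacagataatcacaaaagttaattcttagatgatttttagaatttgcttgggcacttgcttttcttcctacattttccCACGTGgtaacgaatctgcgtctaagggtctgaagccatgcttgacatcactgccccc
Ctsl, chr13:64370521-64370770, minus strand: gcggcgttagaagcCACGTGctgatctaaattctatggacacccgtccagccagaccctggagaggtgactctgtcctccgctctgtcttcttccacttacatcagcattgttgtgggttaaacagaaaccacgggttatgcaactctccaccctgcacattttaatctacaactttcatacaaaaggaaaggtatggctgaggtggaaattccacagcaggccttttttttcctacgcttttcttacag
Ctsd, chr7:142387828-142388077, minus strand: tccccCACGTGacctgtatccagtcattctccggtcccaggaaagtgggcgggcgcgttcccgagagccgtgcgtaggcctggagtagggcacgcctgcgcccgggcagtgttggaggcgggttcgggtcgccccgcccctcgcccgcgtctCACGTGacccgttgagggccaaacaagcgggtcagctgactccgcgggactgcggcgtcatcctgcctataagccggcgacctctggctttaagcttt

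Cell division genes mostly did not pass the test. None of 53 mitosis and kinetochore genes was called by limma (median change -0.26), while 4 had an unadjusted p under 0.05 and voom called 1. In the DNA replication machinery, 3 of 42 genes were lower (7.14%, against 10.7% of all genes, median -0.14). Cdc20, the activator of the anaphase-promoting complex and the mitosis gene with the smallest p, had 27.1 and 29.9 RPKM in the siMyc libraries, against 48.0 and 48.2 RPKM in the siControl libraries (log2 change -0.74 ± 0.28, adjusted p = 0.0840). Ccnd2 (cyclin D2), which drives entry into S phase, had 90.8 and 89.0 RPKM with siMyc, against 161 and 143 RPKM with siControl (log2 change -0.75 ± 0.09, adjusted p = 0.000846). Cdkn1a (p21), a cyclin-dependent kinase inhibitor listed in textbooks as repressed by Myc, had 122 and 126 RPKM with siMyc, against 175 and 186 RPKM with siControl (log2 change -0.54 ± 0.08, adjusted p = 0.00238), lower in both siMyc libraries. The list of 8 such inhibitors held 2 genes called higher and 1 lower, which was Cdkn1a (median 0.10). These are 25.0% and 12.5%, against 12.8% and 10.7% of all genes. Of 34 genes of the p53 list, to which Cdkn1a also belongs, 16 were lower and none higher (median -0.28), including the receptor Eda2r (-1.15). In the Bcl2 family the death gene Bcl2l11 (Bim) changed by 0.61 and the death effector Bak1 by -0.52. Replication-dependent histone genes were lower for 7 of 22 and higher for 2 (31.8% and 9.09%, against 10.7% and 12.8% of all genes). Hist1h2ab had 1.21 and 1.52 RPKM with siMyc, against 5.56 and 3.48 RPKM with siControl (log2 change -1.20 ± 0.17, adjusted p = 0.00143), though these genes are near-identical copies of one another and are uncertain one by one. Wdr5, a shared subunit of histone-modifying complexes that also binds Myc, had 13.1 and 13.3 RPKM with siMyc, against 19.5 and 20.1 RPKM with siControl (log2 change -0.55 ± 0.10, adjusted p = 0.00463). With siMyc replicate 1, siMyc replicate 2, siControl replicate 1 and siControl replicate 2 left out in turn, the test called 1, 1, 0 and 1 replication genes lower. The counts for p53 list genes were 6, 14, 9 and 7, and those for histone genes were 2, 6, 2 and 4.

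Some genes that attach cells to the matrix rose. Of 28 integrin and laminin genes, 9 were higher and none lower (median 0.06, and 0.03 with quantile normalization), and the list summed to 1844 and 1886 RPKM with siMyc, against 1398 and 1371 RPKM with siControl. Itgb1, the beta-1 integrin shared by most matrix receptors, had 1048 and 1084 RPKM in the siMyc libraries, against 673 and 681 RPKM in the siControl libraries (log2 change 0.65 ± 0.09, adjusted p = 0.00124). Lama2, the laminin chain of muscle basement membrane, had 9.68 and 7.92 RPKM with siMyc, against 4.42 and 3.72 RPKM with siControl (log2 change 0.95 ± 0.12, adjusted p = 0.00105), and the groups were well apart for both genes. Thbs1 (thrombospondin 1), a matrix protein listed in textbooks as repressed by Myc, had 2897 and 3055 RPKM with siMyc, against 2045 and 2005 RPKM with siControl (log2 change 0.55 ± 0.10, adjusted p = 0.00442). Of 30 collagen chains, 5 were higher (16.7%, against 12.8% of all genes) and 6 lower (20.0%, against 10.7%). The basement membrane collagens Col18a1 and Col15a1 changed by -1.45 and -1.12, and Col8a1 and Col8a2, chains of the short-chain collagen VIII, by 0.79 and 1.04. Of 30 matrix proteases and inhibitors, 8 were higher (26.7%) and 5 lower (16.7%). The metalloprotease inhibitor Timp2 had 586 and 529 RPKM with siMyc, against 325 and 349.6 RPKM with siControl (log2 change 0.72 ± 0.11, adjusted p = 0.00185), and Serpinf1, the secreted factor PEDF, had 83.3 and 121 RPKM with siMyc, against 228 and 261 RPKM with siControl (log2 change -1.27 ± 0.18, adjusted p = 0.00151). Decorin (Dcn), a proteoglycan of the matrix, changed by 0.92, and N-cadherin (Cdh2) by 0.91. In the contractile list, 5 of 33 genes were lower and none higher (15.2% lower, against 10.7% of all genes; median -0.06, and 0.025 with quantile normalization). Tpm4, a tropomyosin, had 356 and 427 RPKM with siMyc, against 558 and 584 RPKM with siControl (log2 change -0.55 ± 0.10, adjusted p = 0.00473), and Acta2 (smooth muscle actin) changed by -0.57, but the call for Acta2 was lost without siMyc replicate 1 (adjusted p = 0.181), siControl replicate 1 (adjusted p = 0.112) or siControl replicate 2 (adjusted p = 0.0984). Bone and cartilage genes were called lower for 3 of 18 (16.7%, against 10.7% of all genes), among them the cartilage proteoglycan Acan (-1.03) and the tendon transcription factor Scx (-0.59). Leaving out, in this order, siMyc replicate 1, siMyc replicate 2, siControl replicate 1 or siControl replicate 2, the test called 3, 6, 5 and 3 integrin and laminin genes higher. The counts for collagen chains higher were 3, 2, 2 and 3, and those for collagen chains lower were 2, 6, 4 and 3. The counts for proteases and inhibitors higher were 5, 6, 6 and 5, and those for proteases and inhibitors lower were 1, 5, 3 and 1. The counts for contractile genes lower were 1, 5, 1 and 1.

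In 4 of 5 growth factor lists more genes were higher than lower, as was so over all genes tested (12.8% higher and 10.7% lower). Of 23 BMP pathway genes, 9 were higher (39.1%) and none lower (median 0.28). Of 41 Wnt genes, 12 were higher (29.3%) and 1 lower (median 0.09). Of 30 PDGF, FGF, VEGF and endothelin genes, 8 were higher (26.7%) and 1 lower (median 0.25). Of 23 EGF, IGF and HGF genes, 6 were higher (26.1%) and none lower (median 0.13). Among ligands, Pgf (placental growth factor, a VEGF relative) had 8.05 and 6.72 RPKM in the siMyc libraries, against 3.40 and 3.44 RPKM in the siControl libraries (log2 change 0.92 ± 0.13, adjusted p = 0.00161), and Pdgfd changed by 0.73 and Wnt4 by 0.62. Among receptors, Flt4 (VEGF receptor 3, best known from lymphatic vessels) had 18.4 and 15.2 RPKM with siMyc, against 5.13 and 4.44 RPKM with siControl (log2 change 1.62 ± 0.14, adjusted p = 0.000423). The endothelial markers summed above were also higher with siMyc, and their part in the change of Flt4 and Pgf was not tested. Among secreted antagonists and binding proteins, the BMP inhibitor Chrd had 3.50 and 3.59 RPKM with siMyc, against 1.64 and 2.01 RPKM with siControl (log2 change 0.69 ± 0.12, adjusted p = 0.00384), the insulin-like growth factor binder Igfbp4 changed by 0.79, and Fstl1, a follistatin-like protein, had 748 and 755 RPKM with siMyc, against 449 and 515 RPKM with siControl (log2 change 0.64 ± 0.08, adjusted p = 0.000932). Pgf, Flt4, Chrd and Fstl1 were higher in both siMyc libraries than in either siControl library. Among BMP targets, Id2 changed by 0.66 and Id4 by 0.84, but the call for Id2 was lost without siMyc replicate 1 (adjusted p = 0.180), siControl replicate 1 (adjusted p = 0.0537) or siControl replicate 2 (adjusted p = 0.164), and the call for Id4 was lost without siMyc replicate 1 (adjusted p = 0.190), siMyc replicate 2 (adjusted p = 0.106), siControl replicate 1 (adjusted p = 0.121) or siControl replicate 2 (adjusted p = 0.185). Of 29 TGF-beta pathway genes, 4 were higher and 4 lower (13.8% each way, near the shares of all genes), among the lower the TGF-beta binding protein Ltbp4 (-0.74). AP-1 and immediate early genes were higher for 4 of 29 and lower for 2 (median 0.12). These are 13.8% and 6.90%, against 12.8% and 10.7% of all genes. The largest rise in this list was that of Maff (1.24). Fosl1 (Fra-1) had 10.5 and 10.6 RPKM with siMyc, against 19.8 and 17.7 RPKM with siControl (log2 change -0.77 ± 0.08, adjusted p = 0.000556), lower with siMyc. When siMyc replicate 1, siMyc replicate 2, siControl replicate 1 or siControl replicate 2 was left out, the test called 1, 4, 1 and 1 BMP genes higher. The counts for Wnt genes were 5, 6, 3 and 8, and those for PDGF, FGF, VEGF and endothelin genes were 7, 8, 7 and 7. The counts for EGF, IGF and HGF genes were 2, 5, 2 and 2, and those for TGF-beta genes higher were 1, 2, 2 and 3. The counts for TGF-beta genes lower were 1, 3, 2 and 1.

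Antigen presentation and interferon lists held no lower calls. Of 19 MHC class I and immunoproteasome genes, 6 were higher and none lower (median 0.45). Of 46 interferon-stimulated genes, 4 were higher and none lower (8.70% higher, against 12.8% of all genes, median 0.55). Pooled over all 6 groups of the series, the SD of the interferon list median between replicates was 0.42. With 1 of the 4 compared libraries left out, the median change was 0.55 to 0.58. H2-D1, a class I heavy chain, had 142 and 125 RPKM in the siMyc libraries, against 86.6 and 89.5 RPKM in the siControl libraries (log2 change 0.59 ± 0.13, adjusted p = 0.00873), but the call for H2-D1 was lost without siMyc replicate 1 (adjusted p = 0.0805) or siControl replicate 1 (adjusted p = 0.0607); class I genes are also similar to one another in sequence. Iigp1, an interferon-induced GTPase, had 2.83 and 2.10 RPKM with siMyc, against 0.371 and 0.341 RPKM with siControl (log2 change 1.34 ± 0.28, adjusted p = 0.00837), but the call for Iigp1 was lost without siMyc replicate 1 (adjusted p = 0.0724) or siControl replicate 2 (adjusted p = 0.0508). In fits that omitted siMyc replicate 1, siMyc replicate 2, siControl replicate 1 or siControl replicate 2, the test called 0, 3, 0 and 2 MHC genes higher. The counts for interferon-stimulated genes were 0, 1, 1 and 0. Ptgs1, the constitutive cyclooxygenase, had 25.4 and 24.7 RPKM with siMyc, against 14.9 and 15.9 RPKM with siControl (log2 change 0.67 ± 0.09, adjusted p = 0.00105).

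Hox genes, which record the position of a fibroblast along the body, were higher for 6 of 29 and lower for none (20.7% higher, against 12.8% of all genes, median 0.15). Hoxc5 had 8.05 and 7.31 RPKM in the siMyc libraries, against 5.26 and 5.08 RPKM in the siControl libraries (log2 change 0.49 ± 0.09, adjusted p = 0.00410), and Hoxb7 changed by 0.48. Of 22 imprinted growth genes, 7 were higher and 2 lower (median 0.18). Slc22a18, a transporter in an imprinted cluster, had 3.10 and 2.60 RPKM with siMyc, against 0.698 and 0.893 RPKM with siControl (log2 change 1.10 ± 0.13, adjusted p = 0.000712), and Plagl1 (Zac1), a zinc finger regulator of growth, had 17.4 and 17.3 RPKM with siMyc, against 10.8 and 10.3 RPKM with siControl (log2 change 0.67 ± 0.13, adjusted p = 0.00680). Both imprinted genes were higher in each siMyc library. Among 23 hypoxia-responsive genes, 4 were higher (17.4%, against 12.8% of all genes) and 1 lower (4.35%, against 10.7%). The largest change in this list was a fall, at -1.49. Epas1 (HIF-2 alpha) had 5.09 and 4.68 RPKM with siMyc, against 2.61 and 2.35 RPKM with siControl (log2 change 0.76 ± 0.09, adjusted p = 0.000712), and Bnip3l, a mitophagy receptor, changed by 0.44. Endoplasmic reticulum chaperones were higher for 5 of 22, led by Dnajb11 (0.54), but the call for Dnajb11 was lost without siMyc replicate 1 (adjusted p = 0.0553). With siMyc replicate 1, siMyc replicate 2, siControl replicate 1 and siControl replicate 2 left out in turn, the test called 2, 4, 3 and 3 Hox genes higher. The counts for imprinted genes higher were 2, 6, 2 and 2, and those for imprinted genes lower were 1, 1, 0 and 0. The counts for hypoxia genes higher were 2, 3, 2 and 2, and those for endoplasmic reticulum genes higher were 0, 4, 1 and 1.

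The same knockdown at 2 days of dox changed many more genes: 74.9% of the 13175 were called, 37.7% higher and 37.1% lower. The libraries without dox share none with those with dox. Of the 1412 genes lower without dox, 1197 were also lower with dox, which is 84.8% of the first list and 24.5% of the second, and of the 1686 higher genes, 1443 were also higher with dox, 85.6% of the first list and 29.0% of the second. The difference between the effects, without dox minus with dox, passed the test for 54.1% of all genes tested (29.3% positive and 24.8% negative). Of the genes called without dox, 1866 had such a difference: 1567 of them changed in the same direction by more with dox, 72 by less, and 227 had the opposite sign. Myc itself had 16.9 and 26.2 RPKM in siMyc libraries with dox, against 174 and 155 RPKM in siControl libraries with dox, a change of -2.91 ± 0.20. The difference between the effects was 1.05 ± 0.28 (adjusted p = 0.00898). In siMyc libraries with dox, Myc therefore stood at about the level of siControl libraries without dox. Whether reads of the inducible factors count towards Myc is not given in the sources used here.

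Genes of the ribosome and the lysosome moved in the same direction with dox, by more: the median of ribosome biogenesis factors was -0.42 without dox and -1.51 with it, that of ribosomal proteins -0.66 and -0.98, and that of lysosome genes 0.43 and 1.18. Mitosis and DNA replication genes had medians of -0.26 and -0.14 without dox and -1.37 and -1.44 with it, and with dox 53 of 53 and 42 of 42 were called lower. In the contractile list, 28 of 33 genes were not called without dox, and with dox 28 were higher and 1 lower (medians -0.06 and 0.72). Pgf had 8.05 and 6.72 RPKM with siMyc, against 3.40 and 3.44 RPKM with siControl, without dox, and 44.2 and 38.8 RPKM with siMyc, against 2.33 and 1.62 RPKM with siControl, with dox (difference of the effects -2.92 ± 0.19, adjusted p = 5.83e-06). Sema7a, a membrane-bound semaphorin, had 8.68 and 8.67 RPKM with siMyc, against 3.14 and 3.33 RPKM with siControl, without dox, and 27.8 and 26.6 RPKM with siMyc, against 1.72 and 1.42 RPKM with siControl, with dox (difference -2.27 ± 0.14, adjusted p = 5.15e-06). Both genes rose in each state and by more with dox. Cbr2, a carbonyl reductase, had 8.996 and 13.3 RPKM with siMyc, against 21.9 and 27.2 RPKM with siControl, without dox, and 8.98 and 12.6 RPKM with siMyc, against 4.16 and 3.58 RPKM with siControl, with dox (difference -2.35 ± 0.28, adjusted p = 0.000131), lower with siMyc in the first state and higher in the second. Echdc2, a mitochondrial protein of the enoyl-CoA hydratase family, had 5.38 and 6.54 RPKM with siMyc, against 12.7 and 10.9 RPKM with siControl, without dox, and 4.98 and 6.25 RPKM with siMyc, against 43.4 and 37.1 RPKM with siControl, with dox (difference 1.76 ± 0.18, adjusted p = 6.87e-05), lower in both states.

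**Figure D4:**
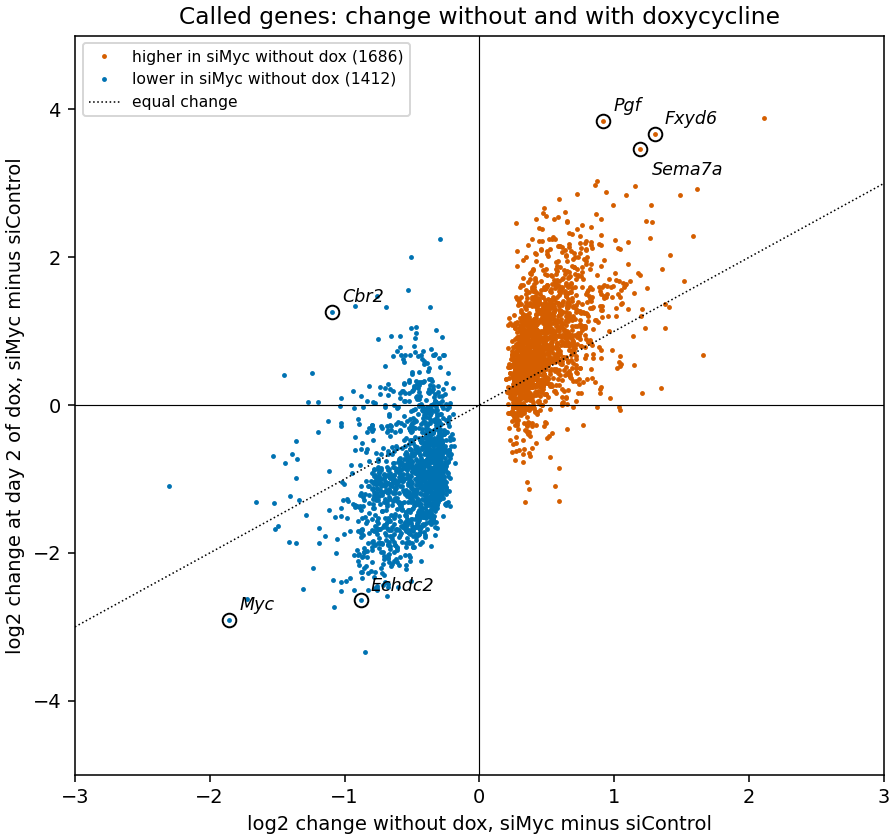
Log2 change (siMyc minus siControl) at 2 days of dox against that without dox, for the 1686 genes called higher and the 1412 called lower without dox; circled genes are named in the text and the dotted line marks equal change. Most points lie in the lower left and upper right quadrants and farther from 0 on the vertical axis.

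Set directly against the Gcn5 knockdown, also without dox, 58.7% of the 13175 genes differed, 22.2% higher and 36.5% lower with siMyc; the median over all genes was -0.11, and with median-ratio scaling the split was 3609 higher and 3736 lower. Both knockdowns use the same siControl libraries, so their effects are not set side by side as separate evidence. Myc had 4.57 and 4.80 RPKM with siMyc, against 9.31 and 7.10 RPKM with siGcn5, and 21.7 and 17.6 RPKM with siControl. Kat2a, the gene for Gcn5, had 17.6 and 16.5 RPKM with siMyc, against 1.33 and 1.97 RPKM with siGcn5, and 23.03 and 20.7 RPKM with siControl. Ly6a (Sca-1), a stem cell surface antigen, had 242 and 199 RPKM with siMyc, against 30.3 and 35.0 RPKM with siGcn5 (log2 difference 2.71 ± 0.14, adjusted p = 2.22e-06), and 83.2 and 108 RPKM with siControl. Timp2 had 586 and 529 RPKM with siMyc, against 105 and 133 RPKM with siGcn5 (log2 difference 2.23 ± 0.11, adjusted p = 1.76e-06). Col10a1, the collagen of hypertrophic cartilage, had 6.28 and 6.74 RPKM with siMyc, against 123 and 134 RPKM with siGcn5 (log2 difference -4.11 ± 0.10, adjusted p = 1.25e-08), and 8.85 and 8.91 RPKM with siControl. Ly6a and Timp2 were thus highest with siMyc and lowest with siGcn5, and for Col10a1 the siGcn5 libraries stood far above the other 4. Mitosis genes had a median difference of 1.32 and MHC genes one of -0.89. Against siControl, the mitosis median was -0.26 with siMyc and -1.64 with siGcn5. The MHC median was 0.45 with siMyc and 1.20 with siGcn5. No mitosis gene was called with siMyc against siControl. As the same siControl libraries enter both sides, these medians are not separate evidence of a shared direction.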

How the data were processed

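RNA-seq libraries of 2o 1B MEFs were deposited by the authors as RPKM values per gene symbol, 1 column per library; per the submitters' processing notes, reads were aligned to mm9 with TopHat2 2.0.9 and Bowtie 0.12.8, and HTSeq, edgeR and affy are named without versions. Not given in the sources used here are the annotation, how strand was used and what was done with reads that match several places. RPKM divides by each library's reads, so a fall of abundant genes raises the share of all others. Values of all 20788 genes above 0 were whole multiples of 1 read (tolerance 0.05 reads), which gave depths of 65.5 to 188 M reads over the 12 libraries.

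Genes with at least 1 RPKM in at least 2 of 12 libraries (13175) were fitted on log2(RPKM + 1) with limma 3.58.1 (trend option, R 4.3.3), 1 term per group over all 12 libraries, 6 residual degrees of freedom, Benjamini-Hochberg adjustment over all genes and a threshold of 0.05. Replicates had a Spearman correlation of 0.990 in siControl and 0.990 in siMyc, and the replicate pairs differed by more than counting error. The fit was also run on simulated data with independent libraries and the same extra spread for all genes. Those settings were not matched to these libraries, so the run does not give the rate of false calls here. The comparison, the 72 gene lists and the tests were chosen with earlier results of these data known. Named genes are the Myc network and the 20 largest called changes each way on log2 and 10 on RPKM. Also named are up to 4 called members of each list, and 8 each way for the 2 other contrasts. The largest changes were taken only from genes whose groups do not overlap and whose higher group has a mean of at least 2 RPKM. Genes for the other contrasts also had to have groups that do not overlap. Any other gene is marked as chosen after its values were seen, apart from markers and the targeted genes. Alternatives were another pseudocount and filter, 2 scalings, array weights, voom on recovered reads, fewer groups, a replicate block and each library left out.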

Additional observations from a re-analysis of the deposited data

Results flagged for a closer look

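For 16 named genes, called without dox and with the largest differences each way, the siMyc effect without dox differed from that at 2 days of dox by the interaction test of limma; a value is the effect without dox minus the effect with dox on log2(RPKM + 1), and each stayed past the threshold with each library of the contrast left out. The difference was 2.49 for Shmt1 (cytosolic serine hydroxymethyltransferase), which had 2.89 and 3.05 RPKM with siMyc, against 6.76 and 5.57 RPKM with siControl, without dox, and 3.64 and 7.61 RPKM with siMyc, against 59.96 and 66.1 RPKM with siControl, with dox. It was 1.89 for Slc19a1 (the reduced folate carrier), 1.79 for Polr1b (the second largest subunit of polymerase I), 1.75 for Pold2 (a subunit of DNA polymerase delta), 1.86 for Cenpv, 1.76 for Echdc2 and 1.88 for 6330503K22Rik; all of these were lower with siMyc in both states and by more with dox. Psmb10, an immunoproteasome subunit, differed by 1.89: it had 20.9 and 18.9 RPKM with siMyc, against 12.1 and 13.7 RPKM with siControl, without dox, and 19.8 and 23.9 RPKM with siMyc, against 58.1 and 52.0 RPKM with siControl, with dox. In the other direction the difference was -2.92 for Pgf, -2.37 for Fxyd6 (a regulator of the sodium pump) and -2.27 for Sema7a, each higher with siMyc in both states and by more with dox. Myl4 (-2.54), Dpep1 (-2.51), Cbr2 (-2.35), Fbxo2 (-2.26) and Ngfr (-2.23) were lower with siMyc without dox and higher with it; Ngfr, the low-affinity neurotrophin receptor, had 0.859 and 0.610 RPKM with siMyc, against 2.18 and 1.70 RPKM with siControl, without dox, and 7.26 and 5.42 RPKM with siMyc, against 2.06 and 1.25 RPKM with siControl, with dox. Against siControl without dox, the calls of Echdc2, Pgf, Fxyd6, Cbr2 and Sema7a held with each of the 4 libraries left out. Omitting siMyc replicate 1 ended those of Shmt1, Slc19a1, Psmb10, 6330503K22Rik, Cenpv, Polr1b, Pold2, Myl4, Dpep1 and Fbxo2. Omitting siMyc replicate 2 ended those of Shmt1, Slc19a1, 6330503K22Rik, Cenpv, Polr1b, Pold2 and Ngfr. Omitting siControl replicate 1 ended those of Shmt1, Slc19a1, Psmb10, 6330503K22Rik, Cenpv, Polr1b, Pold2, Myl4, Fbxo2 and Ngfr. Omitting siControl replicate 2 ended those of Shmt1, Slc19a1, 6330503K22Rik, Cenpv, Polr1b, Pold2, Myl4, Dpep1 and Fbxo2.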

How the results depend on the processing

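The 3098 calls for siMyc against siControl without dox became 3229 with log2(RPKM + 0.1), 2619 with no filter on low values, 2562 with a mean of 5 RPKM or more, 3192 with median-ratio scaling, 2976 with quantile normalization, 4608 with array weights, 3523 with voom on recovered reads and 3588 with only the groups compared, and all calls shared with the first count had the same direction. Leaving out 1 of the 12 libraries gave 1068 to 3492 calls, with the lowest count without siMyc replicate 1. For the difference with dox the range was 5579 to 7417 calls, and for siMyc against siGcn5 it was 5845 to 8031, beside 7129 and 7737 with all libraries; the share of positive calls was 54.2% and 37.8%, against 44.7% and 49.1% with median-ratio scaling. Among list medians larger than their spread between replicates, the sign turned in 1 case, the median log2 of Skeletal muscle markers (-0.0005 with no filter on low values). Among uncalled Myc network genes the sign turned for Mxd1 (-0.0347 to 0.210 over the libraries left out, lowest without siControl replicate 1), Mga (-0.0029 with quantile normalization, and -0.0883 to 0.143 over the libraries left out, lowest without siMyc replicate 2) and Trrap (-0.0133 to 0.0132, above 0 without siMyc replicate 2 and, at 0.0050, without siControl replicate 2). With any of 3 E-box words, 39.0% of lower and 39.6% of higher genes had a match; for changes of at least 0.5 the share with CACGTG was 14.4% of lower and 15.9% of higher genes. The cause of these shifts was not tested.

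Replicate numbers are shared by the groups, but no label says what they pair. With a replicate block 4440 genes were called without dox, 8287 for the difference with dox and 8652 against siGcn5, and deviations of same-numbered siMyc and siControl libraries without dox had a correlation of 0.456 across genes. The block also called 3 named genes that limma without it did not, Cdc20, Kdr and Cd14 (adjusted p = 0.0272, 0.00452 and 0.0423). Array weights and the fit with only the groups compared gained 3 named genes each as well. Of 293 named genes called, 157 stayed called with each of the 4 libraries left out and 243 with no filter on low values.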

Other observations

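Among genes taken from general knowledge as raised by Myc, 24 of 33 were lower with siMyc (median -0.55). Among 14 taken as repressed by Myc, 3 were higher and 3 lower (21.4% each way, median 0.04). Ndrg2, a differentiation gene of the repressed list, changed by -0.83, but the call for Ndrg2 was lost without siMyc replicate 1 (adjusted p = 0.0683) or siControl replicate 2 (adjusted p = 0.0684). Several genes with large changes belong to none of the lists. Slfn2, a Schlafen protein of lymphoid quiescence, had 14.0 and 11.0 RPKM with siMyc, against 4.17 and 3.94 RPKM with siControl (log2 change 1.41 ± 0.26, adjusted p = 0.00460). Gda, guanine deaminase, had 4.84 and 3.91 RPKM with siMyc, against 0.970 and 1.16 RPKM with siControl (log2 change 1.37 ± 0.10, adjusted p = 0.00018), and Upk1b, a uroplakin of the bladder lining, had 9.40 and 6.69 RPKM with siMyc, against 2.50 and 2.90 RPKM with siControl (log2 change 1.28 ± 0.12, adjusted p = 0.000463). These 3 were higher in both siMyc libraries, as were the EGF-repeat protein Megf6 (1.24) and the enamel-associated gene Tuft1 (1.23). At the lower end, Ptprv, a receptor-type tyrosine phosphatase, had 1.53 and 2.24 RPKM with siMyc, against 5.66 and 6.89 RPKM with siControl (log2 change -1.34 ± 0.16, adjusted p = 0.000902). The growth factor pleiotrophin (Ptn) and the interleukin 33 receptor Il1rl1 changed by -1.36 and -1.39, but the call for Ptn was lost without siMyc replicate 1 (adjusted p = 0.0675) or siControl replicate 2 (adjusted p = 0.0621), and the call for Il1rl1 was lost without siMyc replicate 1 (adjusted p = 0.0741) or siControl replicate 2 (adjusted p = 0.0748).

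Chromatin lists had medians near 0. Of 30 SAGA and ATAC subunits 5 were lower (16.7%, median -0.06) and none higher. Of 44 DNA methylation, Polycomb and histone chaperone genes 2 were higher (4.5%) and 5 lower (11.4%, median -0.03). Over all genes tested, 12.8% were higher and 10.7% lower. With siMyc replicate 1, siMyc replicate 2, siControl replicate 1 and siControl replicate 2 left out in turn, the test called 12, 18, 12 and 13 textbook Myc-activated genes lower. The counts for SAGA and ATAC genes lower were 1, 2, 1 and 1, and those for genes of the chromatin list lower were 0, 2, 0 and 1. Pluripotency genes detected in these fibroblasts included Klf4, which had 20.0 and 15.7 RPKM with siMyc, against 11.7 and 12.4 RPKM with siControl (log2 change 0.52 ± 0.15, adjusted p = 0.0317), but the call for Klf4 was lost without siMyc replicate 1 (adjusted p = 0.233), siControl replicate 1 (adjusted p = 0.152) or siControl replicate 2 (adjusted p = 0.0978); Klf4 is also a reprogramming factor, and whether reads of an inducible copy count towards it is not given in the sources used here. Pparg, the adipocyte regulator, and Cd14, a macrophage receptor, were not called (adjusted p = 0.499 and 0.0557), nor was Kdr, VEGF receptor 2 (2.70 and 2.11 RPKM with siMyc, against 1.62 and 1.13 RPKM with siControl; adjusted p = 0.0616).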
